A study of Mus with 7 samples.

Results

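Ppara and Cpt1a, a pair of genes of fatty acid oxidation, were described in mouse hearts after doxorubicin (DOX), an anthracycline used against tumours that also injures the heart. Each gene was read from 1 named probe that the array carried at 10 separate spots. Thus 2 of the 60823 gene probes, or 20 spots on each array, are described in depth. Further probes of either gene among those without a gene name could not be looked for. The Cpt1a probe was taken by its name, A_51_P427674 (transcript NM_013495), and the Ppara probe, A_51_P348334 (transcript NM_011144), as the only probe printed 10 times that carries a RefSeq transcript of mouse Ppara. This rule uses names and transcripts and no measured value, but the members were proposed with earlier results of these data known. All mice were males of the C57BL/6J strain, with no transgene or deleted gene, and their age was not given in the sources used here. The CON group comprised 3 mice (replicates 1, 2 and 3) that received saline (0 mg/kg DOX), and the DOX group comprised 4 mice (replicates 1, 2, 4 and 5) that received DOX at 15 mg/kg, in both groups as a single injection into the peritoneum. The hearts were collected on day 3, and the RNA of each heart was hybridised to its own array, so that n counts mice. The measured tissue was bulk heart, in which fewer cells of a type and less RNA per cell cannot be told apart.

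PPARA, the peroxisome proliferator-activated receptor alpha, is a nuclear receptor that is activated by fatty acids and their derivatives. It pairs with a retinoid X receptor on DNA and switches on genes for the uptake, transport and oxidation of fatty acids, the main fuel of the adult heart. CPT1A is an isoform of carnitine palmitoyltransferase 1, the enzyme of the outer mitochondrial membrane that couples long-chain fatty acids to carnitine and so commits them to entry into the mitochondrion. It is the isoform typical of liver and also present in heart, where the muscle isoform CPT1B prevails, and its gene is a known target of PPARA.

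The values are the log2 of the scanner's processed signal after quantile normalization between arrays, a step that gives every array the same distribution of signals, and they are called normalized signals here. A probe was called changed when it differed more than 2-fold between the groups with an adjusted p under 0.05 in limma, a linear model fitted to every probe at once, with Benjamini-Hochberg adjustment over all 55581 probes tested. Scanning took place in 2 sessions, 1 for each group, so that session and treatment cannot be told apart in any difference given here. The DOX scans were brighter, with a median signal of the gene probe spots between 107.7 and 131.7 against 58.8 to 71.2 in the CON group, while the share of spots well above background was 86.3% to 89.5% in the DOX group and 88.7% to 90.0% in the CON group.

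Ppara, the receptor, was down-regulated in the DOX group. Its normalized signal was 11.70, 12.09 and 11.75 in CON replicates 1, 2 and 3, and 10.71, 10.71, 10.54 and 9.58 in DOX replicates 1, 2, 4 and 5. Every DOX array lay below every CON array, and the nearest arrays of the groups were 0.99 apart. The mean was 11.85 ± 0.21 (SD, n = 3) in the CON group and 10.38 ± 0.54 (SD, n = 4) in the DOX group, which gave a log2 change of -1.46 (standard error 0.28, 95% interval -2.12 to -0.80, adjusted p = 0.00247 from limma). This is a level 2.75-fold higher in the CON group. Within the DOX group the arrays were not alike. DOX replicate 5 was lowest and differed from the CON mean by -2.26 on the log2 scale, a 4.80-fold lower signal, whereas the other DOX arrays differed from it by -1.30 to -1.14. Without DOX replicate 5 the change was -1.19 (adjusted p = 0.000316 from limma).

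Cpt1a, the enzyme, was down-regulated as well. Its normalized signal was 9.81, 10.19 and 10.26 in CON replicates 1, 2 and 3, and 8.57, 8.23, 8.61 and 8.81 in DOX replicates 1, 2, 4 and 5. The groups did not overlap, with a gap of 1.0 between the lowest CON array and the highest DOX array. The mean was 10.09 ± 0.24 (SD, n = 3) in the CON group and 8.55 ± 0.24 (SD, n = 4) in the DOX group, which gave a log2 change of -1.53 (standard error 0.17, 95% interval -1.93 to -1.13, adjusted p = 0.000146 from limma), or a level 2.89-fold higher in the CON group. Here no DOX array stood apart. DOX replicate 2 was lowest, 3.62-fold below the CON mean, and DOX replicate 5, the array with the lowest Ppara signal, had the highest Cpt1a signal of its group and was 2.43-fold below the CON mean.

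**Figure D1:**
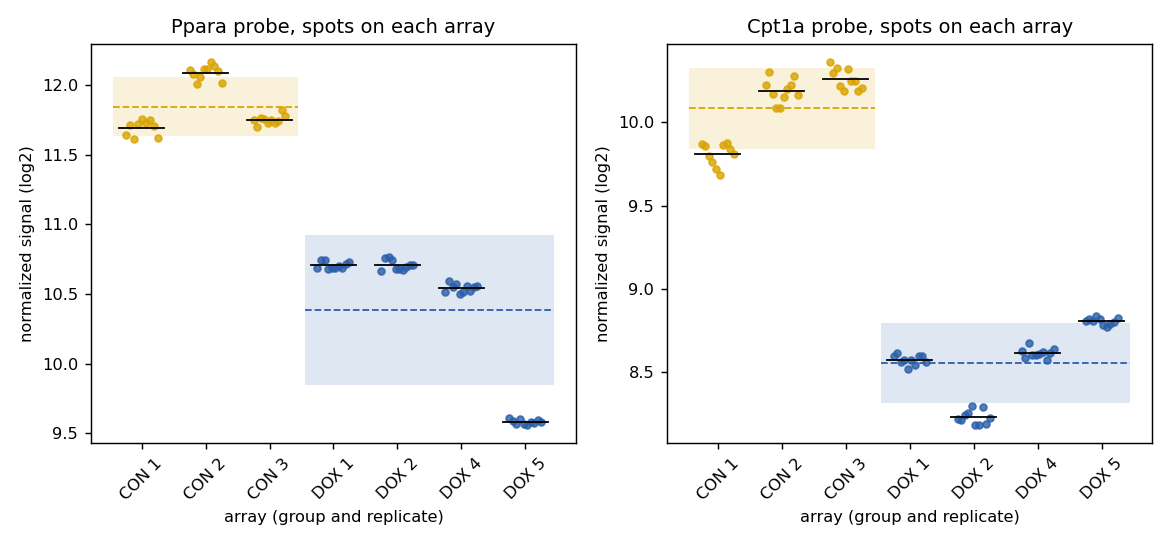
Normalized signal (log2) of each spot of the Ppara probe (left) and the Cpt1a probe (right) on the 3 CON arrays (yellow) and the 4 DOX arrays (blue); black lines are array means, dashed lines and shaded bands are group means ± SD. The spots of an array lie close together, the groups do not overlap for either gene, and DOX replicate 5 is lowest for Ppara at 9.58 and highest of the DOX group for Cpt1a at 8.81.

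The repeated spots gave the measurement error within an array. The SD over the spots of an array was 0.016 to 0.054 for Ppara and 0.020 to 0.073 for Cpt1a on the log2 scale. Between the arrays of a group the SD was 0.21 (CON) and 0.54 (DOX) for Ppara and 0.24 in each group for Cpt1a, so that the differences between arrays were larger than those between spots. With 1 array for each mouse, the mouse, its labelling and its hybridisation cannot be told apart in that spread. On DOX replicate 5 the Ppara spots lay between 9.56 and 9.61. On each of the 7 arrays all spots of both probes exceeded the background clearly by the scanner's own flag, and none was saturated. A single Ppara spot of CON replicate 1 was marked by the scanner software as unevenly bright. Its value was 17.14, against 11.62 to 11.76 for the other 9 spots of that array, and it was left out. When such spots were kept, the change of Ppara was -1.64 in place of -1.46.

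In a stricter test, against a 2-fold change itself, both calls were lost (adjusted p = 0.34 for Ppara and 0.053 for Cpt1a from limma). Both calls also depended on normalization between the arrays. Before it, the mean processed signal of the Ppara probe was 1749, 2740 and 2187 in CON replicates 1, 2 and 3, and 2305, 2350, 2391 and 1155 in DOX replicates 1, 2, 4 and 5. The groups overlapped, and only DOX replicate 5 lay below all CON arrays. The Cpt1a probe had 478, 746 and 769 in the CON group and 482, 424, 610 and 663 in the DOX group, which also overlapped. Relative to the median signal of its own array, the Ppara probe was 29.7 to 38.5 times as bright on the CON arrays and 9.16 to 21.4 times as bright on the DOX arrays. The Cpt1a probe was 8.12 to 11 times as bright as the median on the CON arrays and 3.49 to 5.26 times on the DOX arrays. Thus the signals of both genes fell relative to the median signal of the same array. In scanner units their changes did not pass the test, with log2 changes of -0.15 (adjusted p = 0.65 from limma) for Ppara and -0.28 (adjusted p = 0.31 from limma) for Cpt1a. Without normalization the median change of all probes tested was 0.73. Relative to that median, Ppara changed by -0.88 and Cpt1a by -1.0, and relative to the median of -0.07 under quantile normalization they changed by -1.39 and -1.46.

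**Figure D2:**
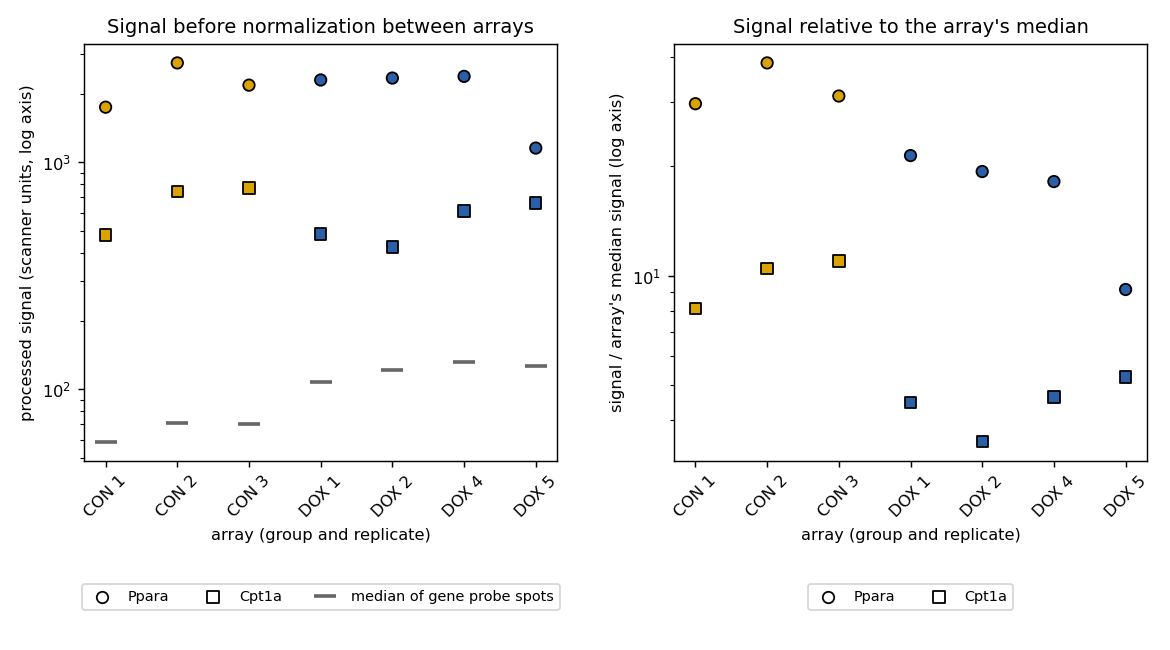
Mean processed signal of the Ppara and Cpt1a probes on each array before normalization between arrays, with the median signal of all gene probe spots as grey bars (left), and the same signals divided by that median (right), on log axes; yellow is CON and blue is DOX. In scanner units the groups overlap and the DOX medians are higher (107.7 to 131.7 against 58.8 to 71.2), whereas relative to the median all DOX arrays lie below all CON arrays for both genes.

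After quantile normalization down-regulation was common on these arrays, and the share called lower was larger among probes of the same kind. Over all probes tested, 16.1% were called lower in the DOX group and 15.5% higher, for 36.4% all DOX arrays lay below all CON arrays, and for 31.1% all lay above them. Besides Ppara and Cpt1a, 46 probes printed 10 times were tested, of which 43.5% were called lower (20 probes) and 6.52% higher (3 probes), and for 65.2% the DOX arrays all lay below the CON arrays. Among the 20986 tested probes whose names begin with ASMM10AP1B, which carry no gene name in the sources used here, 21.6% were called lower. The median change of the 46 probes was -0.92, against -0.07 over all probes tested. These counts moved with the normalization. Without it, 2 of all 48 probes printed 10 times, Ppara and Cpt1a included, were called lower and 7 higher, with a median change of 0.14, against a median of 0.73 and shares of 4.70% lower and 38.8% higher over all probes tested. Being called lower under quantile normalization is therefore shared by Ppara and Cpt1a with a large part of the probes printed 10 times, and neither change can be called particular to fatty acid oxidation. Among the 48 probes printed 10 times that were tested, Cpt1a had the 7th and Ppara the 9th lowest change. Over all probes tested, 7.11% changed by a lower value than Cpt1a and 8.02% by a lower value than Ppara. The part of the probe type, of the scan session and of the normalization in this shift was not tested.

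**Figure D3:**
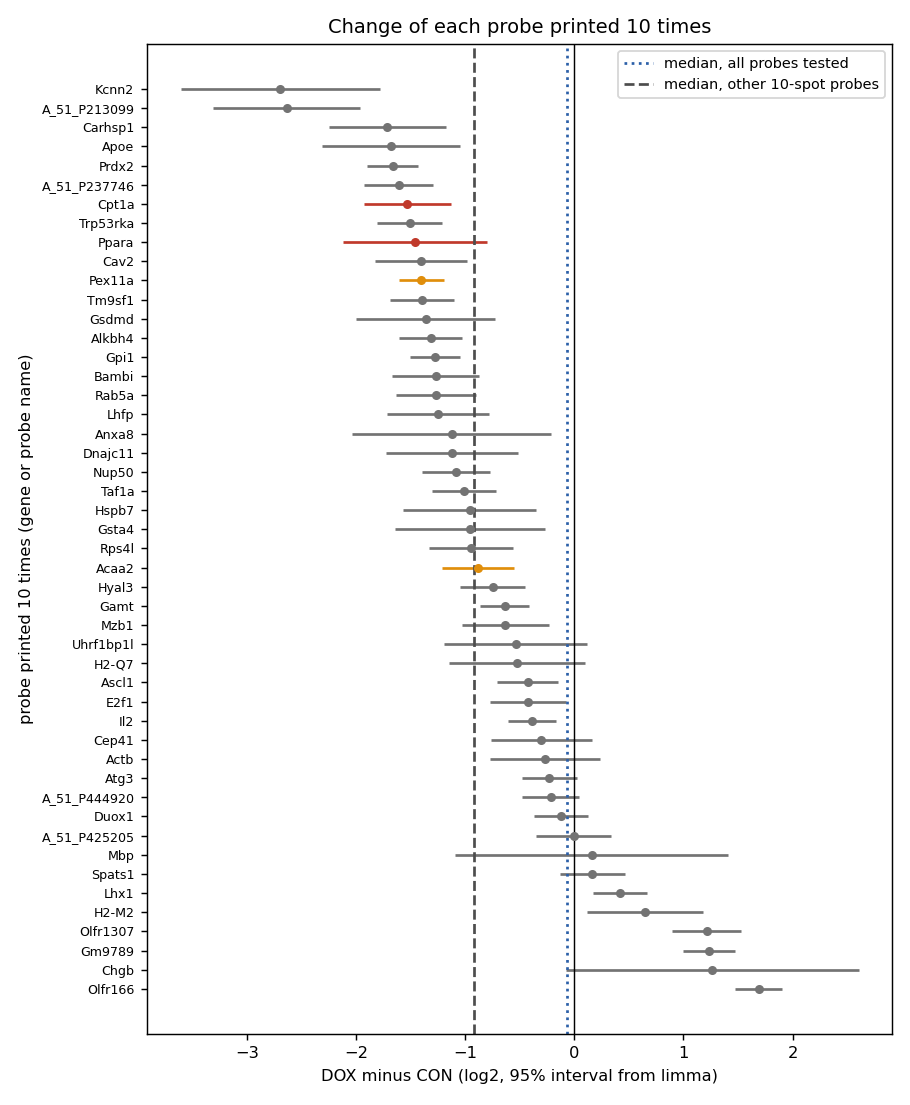
Log2 change, DOX minus CON, of the 48 probes printed 10 times that were tested, with 95% intervals from limma; Ppara and Cpt1a are red, Acaa2 and Pex11a orange, the dotted line is the median of all probes tested (-0.07) and the dashed line the median of the 46 probes other than Ppara and Cpt1a (-0.92). Most of the probes lie left of 0, and Cpt1a at -1.53 and Ppara at -1.46 lie left of the dashed line.

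The pathway around these genes was examined with lists of 84 genes for fatty acid uptake, the carnitine shuttle, mitochondrial and peroxisomal oxidation, the PPAR receptors and their partners, PPARA targets and malonyl-CoA control. Only 3 of the 84 genes have a probe with a gene name in the sources used here, namely Ppara, Cpt1a and Acaa2, and the remaining 81 are not analysed here, Cpt1b among them. Of the 3 genes, 2 were called lower and 0 higher by limma, beside 16.1% lower and 15.5% higher over all probes tested. At an unadjusted p under 0.05, 3 of 3 were lower, beside 37.3% of all probes tested. All 3 were measured by probes printed 10 times, of which 43.5% were called lower without the members, and both called genes are the members themselves, so that the lists add no called gene. Acaa2 encodes the mitochondrial 3-ketoacyl-CoA thiolase, which carries out the last step of a round of beta-oxidation. Its normalized signal was 16.66, 16.75 and 16.72 in the CON group and 15.67, 15.67, 16.17 and 15.77 in DOX replicates 1, 2, 4 and 5. The groups did not overlap, and DOX replicate 4 was the highest of the DOX arrays. On the log2 scale Acaa2 changed by -0.89 (limma, standard error 0.14, adjusted p = 0.000964), which passed the adjusted p and missed the fold. The adjusted p alone was passed in the lower direction by 35.5% of all probes tested. With scaling of each array to its 75th percentile, with cyclic loess, with the replicate number as a block or without DOX replicate 4, Acaa2 also passed the fold, with changes of -1.34, -1.25, -1.03 and -1.0. Without normalization between arrays it also missed the adjusted p, with a change of -0.16 (adjusted p = 0.38 from limma).

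Pex11a was not on the lists and was added once the probe names had been read. It encodes a membrane protein of the peroxisome that promotes the division of this organelle, and it is known to respond to PPARA activators in rodents. Its normalized signal was 12.27, 12.21 and 12.19 in the CON group and 10.83, 10.86, 10.84 and 10.76 in DOX replicates 1, 2, 4 and 5. These arrays fell into a pair of tight groups with no overlap. Pex11a changed by -1.40 on the log2 scale (limma, standard error 0.09, adjusted p = 1.20e-05), and unlike for Ppara, DOX replicate 5 differed from the nearest other DOX array by little, with a log2 difference from the CON mean of -1.47 against -1.39 for DOX replicate 1. As for Ppara and Cpt1a, the call was lost without normalization between arrays (-0.10, adjusted p = 0.51 from limma).

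Whether Ppara and Cpt1a changed unequally was tested with the difference between their signals within each array, in which a factor common to the array cancels. The difference, Cpt1a minus Ppara, changed by -0.07 on the log2 scale from CON to DOX (exact permutation test over the arrays, two-sided p = 0.86, n = 3 and 4). With 35 ways to divide the arrays the smallest two-sided p is 0.057, so that this test could not have passed 0.05, and it does not show that the genes changed alike. The sign was not stable, since the value was 0.11 with outlier spots kept, 0.027 with normexp, 0.065 without CON replicate 3, 0.032 without DOX replicate 1 and 0.15 without DOX replicate 2. Without DOX replicate 5 it was -0.42. The difference had an SD of 0.23 in the CON group and 0.74 in the DOX group. In the DOX group it was -2.14, -2.48 and -1.93 in replicates 1, 2 and 4 and -0.78 in replicate 5, the array in which Ppara was lowest and Cpt1a highest of the group.

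The position of DOX replicate 5 was examined beyond these genes. Over all probes tested it was the lowest DOX array for 25% and the highest for 32.8%, whereas each of the other DOX arrays was lowest for 16.3% to 29.5% and highest for 21.9% to 22.7%. The SD of the log2 differences between a pair of DOX arrays was 0.49 to 0.60 for pairs with DOX replicate 5 and 0.44 for each of the other pairs, and thus DOX replicate 5 was the least like the rest over all probes. Among the 48 probes printed 10 times it was the lowest for 17 and the highest for 12, while DOX replicate 2 was most often the lowest (20 probes) and DOX replicate 4 most often the highest (20 probes). Each file header holds a code of 2 numbers, which no source used here explains and which was read as the row and column of the array on its slide. Under this reading DOX replicate 5 and all CON arrays were in row 2 and the other DOX arrays in row 1. With the row as a block, the change was -2.26 for Ppara and -1.28 for Cpt1a. These values are those of DOX replicate 5 alone against the CON group, since row 1 holds DOX arrays only, and no p is given for them. The part of the row in the difference between DOX arrays was not tested.

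**Figure D4:**
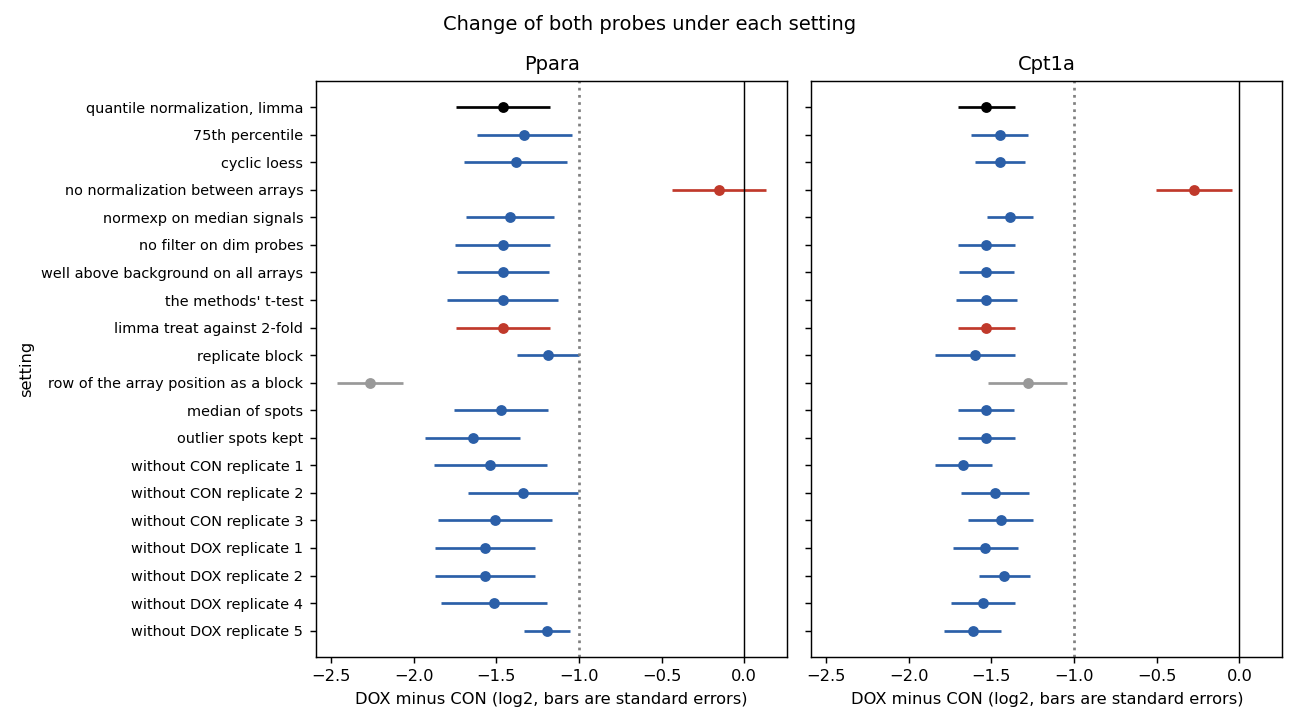
Log2 change of Ppara (left) and Cpt1a (right), DOX minus CON, with standard errors, under quantile normalization with limma (black) and under each other setting; blue keeps the call, red loses it, grey is the row block, which holds DOX replicate 5 alone against the CON group, and the dotted line marks a 2-fold decrease. All values lie below 0, and those without normalization between arrays (-0.15 and -0.28) lie nearest to it.

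The probes with profiles most like those of the members were looked for among the 43 other tested probes printed 10 times that could be matched to a gene symbol. Each profile was centred on its CON mean, and likeness was the root mean square difference from the member over the 7 arrays. The members were not near each other by this measure (0.50), with Cpt1a 12th of 43 from Ppara and Ppara 16th of 43 from Cpt1a. Acaa2 was 17th and 19th. Pex11a was nearer, 7th from Ppara (0.35) and 6th from Cpt1a (0.26). For Ppara the nearest were Gsdmd (0.19), which encodes gasdermin D, the protein that forms membrane pores in pyroptosis, Bambi (0.26), which encodes a decoy receptor of TGF-beta signalling, and Cav2 (0.27), which encodes caveolin 2 of the membrane caveolae. Gsdmd had normalized signals of 9.67, 9.68 and 9.71 in the CON group and of 8.84, 8.36, 8.54 and 7.55 in DOX replicates 1, 2, 4 and 5. As for Ppara, DOX replicate 5 was the lowest array for Gsdmd, and it was also the lowest DOX array for Bambi (9.93) and Cav2 (11.64). The changes were -1.36 for Gsdmd, -1.27 for Bambi and -1.40 for Cav2, all called lower. For Cpt1a the nearest were Trp53rka (0.17), which encodes a p53-related protein kinase, Carhsp1 (0.21), which encodes a calcium-regulated RNA-binding protein, and Rab5a (0.21), which encodes a small GTPase of early endosomes. Their changes were -1.51, -1.71 and -1.27, all called lower, and DOX replicate 5 was the highest DOX array for Carhsp1 (10.42) and Rab5a (12.66), as it was for Cpt1a. For Trp53rka, the nearest, the highest DOX array was replicate 1 (6.14), and DOX replicate 5 was at 5.97. Without normalization between arrays none of these 6 probes was called, with changes of -0.60 to 0.029, and with normexp Trp53rka (-0.98) missed the fold. Against a 2-fold change itself, Trp53rka kept its call (adjusted p = 0.019 from limma), while the other 5 lost theirs (adjusted p = 0.053 to 0.49). These likenesses describe 7 arrays in 2 groups, and most of each is the shared difference between the groups. The nearest probes were chosen on these same 7 arrays, so their calls and their values at DOX replicate 5 partly follow from the choice.

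**Figure D5:**
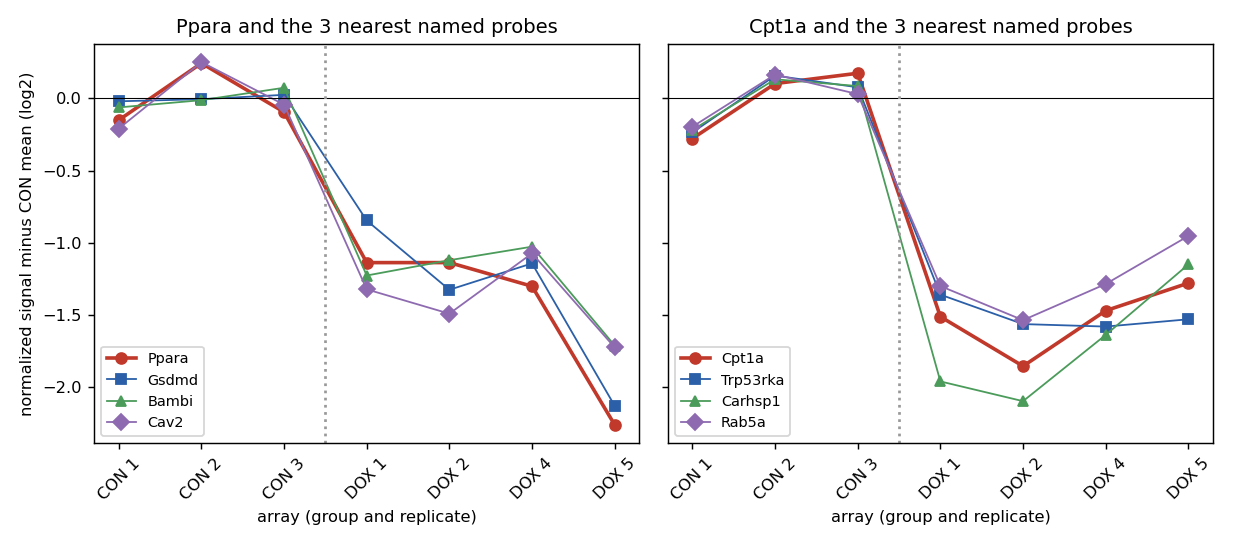
Normalized signal minus the CON mean (log2) on each array for Ppara (left) and Cpt1a (right) and for the 3 named probes nearest to each. The Ppara, Gsdmd, Bambi and Cav2 profiles are lowest at DOX replicate 5, whereas Cpt1a, Carhsp1 and Rab5a are lowest at DOX replicate 2 and Trp53rka at DOX replicate 4.

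The tissue label could not be set against markers, because none of the 33 marker genes listed for cardiomyocytes, fibroblasts, endothelium, smooth muscle, immune cells and adipocytes has a named probe in the sources used here. The listed markers of other cell types could for the same reason not be placed beside the changes of Ppara and Cpt1a. Of genes chosen after their values were seen, Hspb7, a small heat shock protein of heart and skeletal muscle, was well above background on all 7 arrays, with normalized signals of 13.89 ± 0.16 (SD, n = 3) in the CON group and 12.93 ± 0.51 (SD, n = 4) in the DOX group. Hspb7 changed by -0.96 on the log2 scale, which passed the adjusted p (0.0128 from limma) and missed the fold, and all DOX arrays lay below all CON arrays. Of genes typical of other cells, also chosen after their values were seen, Apoe, a lipid carrier abundant in macrophages, was called lower with a change of -1.68 (adjusted p = 0.00101 from limma). Mzb1, a protein of B and plasma cells, changed by -0.63 (adjusted p = 0.0120 from limma) and missed the fold. Chgb, a granin of neuroendocrine cells, had a change of 1.27 that did not pass the test (adjusted p = 0.0863 from limma), with DOX replicate 5 highest at 9.85. The olfactory receptor genes Olfr166 and Olfr1307 were called higher, with changes of 1.69 and 1.21 (adjusted p = 7.17e-06 and 0.000147 from limma). The part of other cell types in the changes of Ppara and Cpt1a was not tested. Tyr, the tyrosinase of pigment cells, and Gabrg1, a neuronal GABA receptor subunit, were well above background on 0 of the 7 arrays.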

How the data were processed

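Arrays were grouped by the sample titles, and the dose and day were taken from the study's methods. The authors deposited the Agilent Feature Extraction 11.0.1.1 output of each single-colour (Cy3) array, in which the spot intensity, per the file headers, was background-subtracted within the array and not normalized between arrays. The authors' deposited table of normalized log2 values for 60641 probes holds 0 of the 50 probes printed 10 times and was not used here.

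The log2 intensity of the non-control spots was quantile-normalized over the 7 arrays, as the study's sample sheet states, spots marked as non-uniform outliers were left out, and the remaining spots of a probe were averaged. A probe was tested when at least 3 arrays had most of its spots well above background. The test was limma 3.58.1 in R 4.3.3 without covariates, with the thresholds of the study's methods (2-fold and 0.05), whose t-test was an alternative. Within-array differences were tested with scipy 1.17.1. The limma p-values rest on the spread between the arrays of each group, drawn toward the spread typical of all probes tested. The groups hold 3 and 4 mice, which limits precision.

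Gene names came from RefSeq transcripts of GRCm38.p6, which named 46 of the 50 probes. No sequence or coordinate was used. The rule for the members uses no measured value, but the members and lists were proposed with earlier results of these data known. Named genes were both members, list genes with a named probe, and for each member the 3 nearest of the named probes printed 10 times. Exceptions are given in the text.

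On simulated data for DOX against CON (55581 probes, 200 changed), the calls recovered 76.0% of changes of 1.5 and 89.5% of changes of 2 on the log2 scale, with 1 and 3 unchanged probes called. Far fewer probes were changed there than were called in the data. The simulated noise was independent between probes, and no shift between sessions or arrays was added. These shares therefore check the code and do not give the error rates for the real arrays. Alternatives were other scalings, normexp, filters and tests, a replicate block, the median of spots, outlier spots kept and each array left out.

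Replicates 1 and 2 occur in both groups. The deviations of same-numbered arrays from their group means correlated at 0.03 and 0.004 across probes, and the number marks no shared litter or day in the sources used here.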

Additional observations from a re-analysis of the deposited data

Results flagged for a closer look

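Of 15 values examined in the DOX group (10 named genes, 4 array measures and the difference within an array), 1 had a single array far from the others, and chance marks about 5% of such groups of 4. This was Ppara, for which the normalized signal of DOX replicate 5 was 9.58, and the gap from it to the nearest DOX array was 0.85 of the whole range of the group, above the limit of 0.829. For Ppara the gap was 0.95 of the range before normalization between arrays and 0.84 with cyclic loess. With scaling to the 75th percentile it was 0.80, which does not pass the limit. The mark was not limited to Ppara under every setting. With cyclic loess, Acaa2 (DOX replicate 4, 0.86) and Trp53rka (DOX replicate 1, 0.90) also passed the limit. Over all probes tested, 5.73% had an array this far apart in the DOX group, and DOX replicate 5 was that array for 2.25%, against 0.98% to 1.32% for each of the other DOX arrays.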

How the results depend on the processing

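Of 18 alternatives for each gene, without the row block, whose value is DOX replicate 5 alone against the CON group, 16 kept the direction and the call of Ppara and Cpt1a. The exceptions were no normalization between arrays, with changes of -0.15 for Ppara and -0.28 for Cpt1a, and the test against a 2-fold change itself, stricter by construction, in which changes of -1.46 and -1.53 had adjusted p = 0.34 and 0.053. Some of the 16 could not move the change. Both probes were well above background on all 7 arrays, so the filters on dim probes left the changes as they were. Cpt1a had no outlier spot, so keeping such spots left its change as it was. Leaving out each array gave -1.57 to -1.19 for Ppara and -1.67 to -1.42 for Cpt1a, all called. With the replicate number as a block, which is only a shared number, the changes were -1.19 and -1.60, both called. Under it 8705 probes were called higher and 9117 lower. Changes under this block, which counts among the 16, rest on replicates 1 and 2 alone, the only numbers found in both groups. The change of the within-array difference (-0.07) turned to 0.027 with normexp and 0.11 with outlier spots kept, was -0.42 to 0.15 with an array left out and had no fixed sign; with the block it was -0.41. Over all probes tested, 8592 were called higher and 8976 lower. These counts were 6137 and 15303 with the 75th percentile (28.6% of calls higher, against 48.9%), 21541 and 2610 without normalization, 4808 and 4327 with normexp, 4240 and 3562 against 2-fold, and 8369 to 8684 and 8776 to 9124 with an array left out. Without normalization Bambi turned to 0.029 and Rab5a to 0.011, and Gsdmd (-0.14), Cav2 (-0.12), Carhsp1 (-0.42) and Trp53rka (-0.60) were not called. The cause of these shifts was not tested. The normexp correction used median signals and was, like the row block, chosen after seeing the data; normexp on mean signals was not run.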
